A study of Mus musculus with 4 samples.

Results

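The Hox genes measured here are the 38 genes of the mouse HoxA, HoxB, HoxC and HoxD clusters that the analysed list names, out of 41388 genes in the deposited tables. They were chosen by symbol and gene identifier and not by a measured value, though with earlier results of these data known. All 38 were matched. RNA was sequenced from EGFP-positive cells that had been dissociated from dorsal root ganglia and sorted by flow cytometry. The ganglia came from spinal levels T11-S1 (lower thoracic to upper sacral) of C57BL/6 mice carrying a Ret-EGFP reporter, labelled postnatal day 2. The labels give 1 animal for each library, and its ganglia are a pool over levels, so no value belongs to a single segment. The 1 female library (female A) came from 40 pooled ganglia and the 3 male libraries (male A, male B and male C) from 20 each. A count of 40 seems more than 1 mouse has at these levels, so it is uncertain whether female A stands for 1 animal.

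All 4 animals carried the reporter, which the genotype label gives as Tg(Ret-EGFP)SJ/ and the design text as EGFP placed in the Ret locus on 1 allele. If the latter holds, every library comes from cells with a single intact copy of Ret, and there was no library without the reporter. All 4 carry the stage P2, yet the wording of the pool descriptions differs. It speaks of a P2 mouse in 2 cases (female A, male A) and of an embryo in the other 2 (male B, male C), and these are called the P2-mouse pair and the embryo pair. Whether these words mark age, a batch or wording alone cannot be told apart.

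Hox genes encode transcription factors that bind DNA through a homeodomain and give cells their position along the head-to-tail axis. Within a cluster the genes lie in order, numbered by paralogue group (genes with the same number in different clusters descend from 1 ancestral gene). Low-numbered genes are used from the hindbrain backwards and high-numbered genes only towards the tail, a relation called collinearity. In the embryo the groups around 9 and 10 are typical of lower thoracic and lumbar levels, and groups 11 to 13 of sacral and tail levels. Neurons of the dorsal root ganglia arise from trunk neural crest and keep a Hox code of their level of origin.

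Gene counts summed to between 17388493 and 28066448 per library. The sorted cells carried sensory neuron RNA: all 12 listed sensory neuron markers, among them Isl1, Pou4f1 and Ret, had counts in every library, and Ret stood at 31.6 to 37.0 RPKM (counts scaled to the library's total of gene counts and to exon length in kilobases). Of 5 spinal motor neuron markers, Mnx1, Chat, Olig2 and Lhx3 were at 0 counts in every library, while Slc5a7, the choline transporter, had 148 to 200 counts. The 5 sympathetic neuron markers summed to at most 0.838 CPM (the same scale without the division by length). The head was equally unrepresented. The 9 genes of the head and cranial identity list summed to at most 0.606 CPM, and Otx2, Six3 and En2 were at 0. Schwann cell and fibroblast RNA was also present and differed between the pairs, with values given beside the comparison it touches.

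The genes with the highest levels belong to few paralogue groups and share the homeobox. The following 45 bases encode the third helix of the homeodomain, the part that lies in the major groove of DNA, in 5 of the 7 genes with the highest levels and in Hoxa11, which had no count. They are written 5′ to 3′ on the strand of the gene, from the GENCODE M21 transcripts with GRCm38 coordinates, and capitals mark bases that differ from Hoxd10.
Hoxd10, chr2:74694270-74694314, plus strand: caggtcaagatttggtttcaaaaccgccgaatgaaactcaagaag
Hoxc10, chr15:102970977-102971021, plus strand: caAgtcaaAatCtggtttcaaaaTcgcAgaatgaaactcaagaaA
Hoxa10, chr6:52232560-52232604, minus strand: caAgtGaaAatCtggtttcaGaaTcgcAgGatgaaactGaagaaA
Hoxb7, chr11:96289514-96289558, plus strand: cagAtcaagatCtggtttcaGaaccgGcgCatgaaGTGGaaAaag
Hoxd8, chr2:74706654-74706698, plus strand: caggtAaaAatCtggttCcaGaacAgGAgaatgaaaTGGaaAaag
Hoxa11, chr6:52243408-52243452, minus strand: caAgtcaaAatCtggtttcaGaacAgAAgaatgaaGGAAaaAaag
In this stretch Hoxc10 differed from Hoxd10 at 6 of 45 bases, Hoxa10 at 10 and Hoxa11 at 12. Hoxa10 and Hoxc10 differed from each other at 4 bases. Over whole transcripts, none of the 50-base words in the annotated transcripts of Hoxd8, Hoxb7, Hoxa10 and Hoxd1 occurred in any other gene, and for Hoxd10 3.17% did, all in the overlapping gene Gm28309. Across clusters, Hoxa6 and Hoxb4 shared 3 such words.

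Each cluster had its transcripts in the middle and little at the tail end. Summed over the 38 genes, Hox RNA came to 86.5 RPKM (female A) and 78.6 (male A) in the P2-mouse pair and to 87.5 (male B) and 88.7 (male C) in the embryo pair. Counts were present in every library for 29 genes, in at least 1 library for 34, and in none for 4. On the stricter minimum of a mean of 1 RPKM, 15 genes were left. The 12 genes of paralogue groups 7 to 10 made up 84.4% ± 0.79 (SD, n = 4) of the summed RPKM, between 83.5% and 85.3% in single libraries. Groups 4 to 6 (10 genes) held 8.71% ± 0.86, groups 1 to 3 (7 genes) 4.60% ± 0.58 and groups 11 to 13 (9 genes) 2.27% ± 0.41 (SD, n = 4 each).

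**Figure D1:**
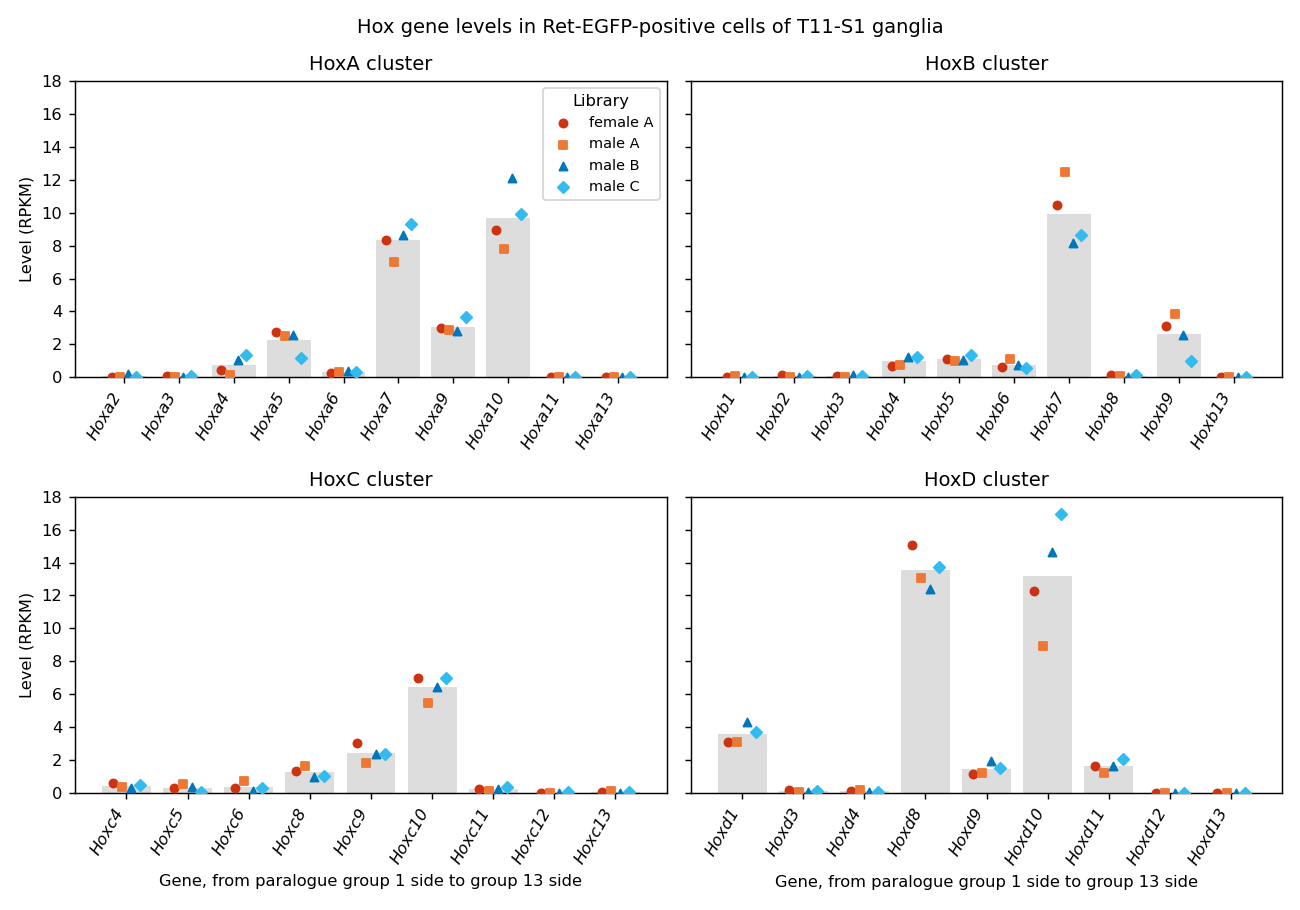
Level in RPKM (y axis) of each Hox gene (x axis, from the paralogue group 1 side to the group 13 side) in the 4 clusters. Points are the 4 libraries and grey bars their mean; levels peak between groups 7 and 10 in all 4 clusters, and Hoxa11, Hoxa13, Hoxb13 and Hoxd12 are at 0 in every library.

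Hoxd8 and Hoxd10, neighbours but for Hoxd9, had the highest levels. Hoxd8 had 15.1 RPKM (female A), 13.1 (male A), 12.4 (male B) and 13.7 (male C), and sets of 4 values below keep this order of libraries. Its values lay close together, with a coefficient of variation (CV) of 8.48% in CPM and a mean of 13.6 RPKM, above 78.9% of the 17716 genes with a count in every library. Hoxd10, a gene of lumbar levels, stood at 12.3, 8.90, 14.6 and 16.9 RPKM (mean 13.2 ± 3.43, SD). Here the spread was wide, 26.0% CV where counting alone gives 4.26%, and both embryo libraries were above both P2-mouse libraries. Between them Hoxd9 reached only 1.13, 1.21, 1.94 and 1.5 RPKM, and the ranges of Hoxd9 and of either neighbour lie far apart.

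Group 10 and group 7 genes of the other clusters followed. Hoxa10, a further lumbar gene, had 8.97, 7.81, 12.1 and 9.95 RPKM, again with both embryo libraries at the top. Hoxc10 was lower and tighter at 6.96, 5.45, 6.45 and 6.96 RPKM. Together with Hoxd10 these made up all 3 members of group 10, and the group alone held 34.2% ± 4.76 (SD, n = 4) of Hox RPKM, from 28.2% in male A to 38.2% in male C. Without the members whose exons overlap other annotated genes, which takes out Hoxc10 and Hoxd10, the share of the group was 19.5%. Hoxb7, which lies in a group typical of the trunk, had 10.5, 12.5, 8.17 and 8.64 RPKM, with both P2-mouse libraries above both embryo libraries. Its only paralogue, Hoxa7, had 8.32, 6.99, 8.63 and 9.31 RPKM, with the embryo libraries slightly above the others. Of the exon bases of Hoxa7, 15.6% overlap Hoxaas3 on the other strand, and the sources used here do not state that the counting used strand, so reads of both cannot be told apart there.

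Members of group 9 were present in all 4 clusters at lower levels, with means from 1.45 RPKM (Hoxd9) to 3.07 RPKM (Hoxa9). Hoxa9 stood at 2.97, 2.84, 2.82 and 3.64 RPKM and Hoxc9 at 3.02, 1.82, 2.38 and 2.38 RPKM. Hoxb9 ran from 3.11 and 3.84 in the P2-mouse pair to 2.57 in male B and 0.983 in male C, that is from 225 counts in female A to 63 in male C. Male C alone stood apart, and the CV was 46.2% where counting alone gives 8.22%. Group 9 as a whole held 11.2% ± 1.20 (SD, n = 4) of Hox RPKM.

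Group 8 was uneven. Hoxd8 was the gene with the highest mean level of all, Hoxc8 had 1.35, 1.67, 0.950 and 1.02 RPKM, and Hoxb8 had a mean of 0.090 ± 0.052 RPKM from 23 counts in all. Hoxb8 lies between Hoxb7 and Hoxb9, whose mean levels were 9.93 and 2.63 RPKM, and the ranges of its 4 libraries overlap neither of them. The third helix stretch of Hoxb8 and Hoxd8 differed at 4 of 45 bases, and no 50-base word of Hoxb8 occurred in another gene.

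**Figure D2:**
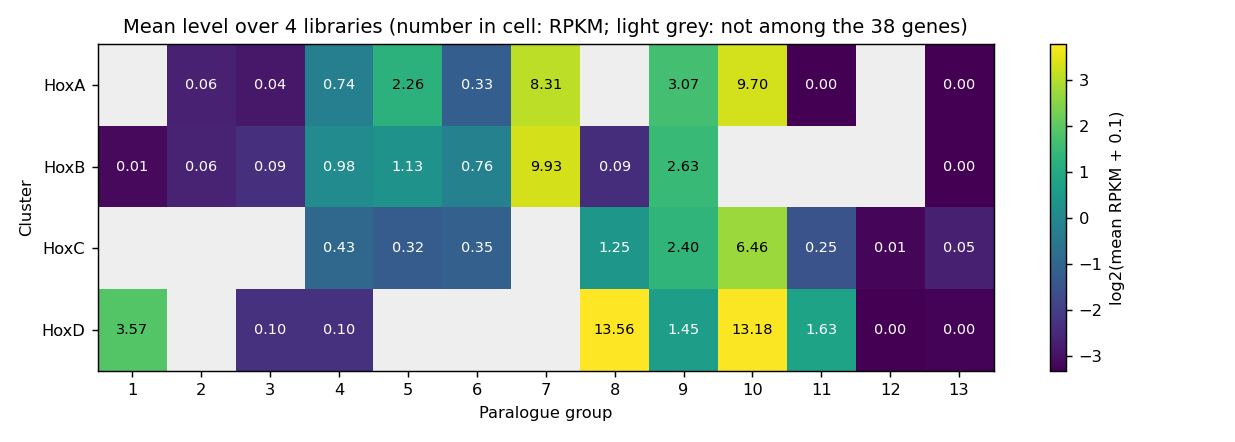
Mean RPKM over the 4 libraries for each Hox gene, by cluster (rows) and paralogue group (columns), with colour on a log2(mean RPKM + 0.1) scale and the mean in each cell. The brightest cells are Hoxd8 (13.56) and Hoxd10 (13.18), followed by Hoxb7, Hoxa10 and Hoxa7, while columns 12 and 13 hold no value above 0.054.

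At the tail side, detection stopped at a different gene in each cluster. In HoxA it stopped after Hoxa10: the next gene, Hoxa11, and Hoxa13 had 0 counts in every library, although 2973 counts fell on Hoxa10. A count of 0 at this depth allows up to 0.0141 RPKM for Hoxa11 and 0.0131 for Hoxa13 (3 counts over all libraries, counting error only). Hoxa11 shares 35.0% of its exon bases with Hoxa11os on the other strand. If reads over both genes were left out of the counts, which is not known, its limit is higher. In HoxB, where no other Hox gene lies between Hoxb9 and Hoxb13, the latter had 0 counts (up to 0.0146 RPKM). HoxC and HoxD reached 1 group further. Hoxc11 had 13, 5, 12 and 19 counts (mean 0.253 ± 0.097 RPKM), and Hoxd11 had 190, 88, 156 and 216 counts at 1.61, 1.20, 1.63 and 2.06 RPKM. Of the exon bases of Hoxd11, 10.8% overlap Gm28309, a gene with no counts. Beyond these, Hoxd12 had 0 counts (up to 0.0127 RPKM), Hoxd13 and Hoxc12 had 1 count each, both in male C, and Hoxc13 had 3, 6, 0 and 2 counts.

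Hoxa10 and Hoxa11 are direct neighbours on either side of that stop. The 250 bases before the outermost annotated start of Hoxa10 and before that of Hoxa11 are given from RefSeq (GRCm38.p6), 5′ to 3′ on the strand of the genes, with CG dinucleotides in capitals because CpG-rich starts are known sites of action of Polycomb and Trithorax proteins.
Hoxa10, chr6:52240855-52241104, minus strand: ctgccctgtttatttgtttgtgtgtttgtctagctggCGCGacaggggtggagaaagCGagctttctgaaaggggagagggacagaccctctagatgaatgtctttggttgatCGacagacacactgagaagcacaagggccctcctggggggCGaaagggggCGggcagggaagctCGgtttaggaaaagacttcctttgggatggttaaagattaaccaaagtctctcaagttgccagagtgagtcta
Hoxa11, chr6:52245811-52246060, minus strand: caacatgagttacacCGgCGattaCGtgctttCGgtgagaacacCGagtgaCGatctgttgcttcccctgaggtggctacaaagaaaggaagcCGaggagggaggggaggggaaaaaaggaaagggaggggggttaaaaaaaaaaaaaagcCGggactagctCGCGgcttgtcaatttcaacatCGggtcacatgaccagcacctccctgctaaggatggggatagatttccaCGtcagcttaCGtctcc
The stretch before Hoxa10, the gene with 2973 counts, holds 7 CG dinucleotides and the one before Hoxa11, the gene with none, 13. A second annotated Hoxa10 start has 20. Windows of 300 bases (250 before and 50 after the start) were found for 22 of the 38 genes, with 24 starts. Their median was 14.5 CG dinucleotides against 7 over all 32851 windows of the table. The 11 windows of 9 genes with a mean of at least 1 RPKM had a median of 20, and the 6 windows of genes with at most 10 counts in all had a median of 14, ranging from 9 to 45. The motif TATAAA, read on both strands, occurred in 4 of the 24 Hox windows (16.7%) and in 13.6% of all windows.

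Towards the head side levels fell less evenly. Group 5 genes, which act at cervical to upper thoracic levels, had Hoxa5 at 2.77, 2.51, 2.59 and 1.18 RPKM and Hoxb5 at 1.10, 1.01, 1.06 and 1.34 RPKM. Male C was again the low library for Hoxa5 (55 counts, against 82 to 146 in the others) but not for Hoxb5. The other members of groups 4 to 6 had means between 0.10 RPKM (Hoxd4) and 0.978 RPKM (Hoxb4). Hoxa4 was the most variable of them, with 20, 4, 37 and 53 counts. In groups 2 and 3 no gene exceeded a mean of 0.103 RPKM: Hoxa2, Hoxa3, Hoxb2, Hoxb3 and Hoxd3 had between 9 and 42 counts over all libraries. Of the exon bases of Hoxb3 52.9% overlap other annotated genes, of Hoxd3 62.8% and of Hoxd4 52.3%, so their few counts are uncertain.

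Hoxd1 broke the trend. At the head end of HoxD, beyond the near-empty Hoxd3 and Hoxd4, it stood at 3.12, 3.09, 4.34 and 3.73 RPKM (163, 100, 183 and 173 counts). This gene is known from sensory neurons, where it takes part in the development of pain-sensing neurons in the mouse. Its level was the 7th highest of the 38 and its 4 values were all above the highest value of Hoxd3 (0.170) and Hoxd4 (0.195). Hoxb1, its group 1 paralogue in the list, had 2 counts, both in male A. No exon base of Hoxd1 overlaps another annotated gene and none of its 50-base words occurs elsewhere. Hoxd1 alone accounts for the 4.19% of Hox RPKM in group 1, apart from those 2 counts.

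Ordered by mean RPKM the genes ran Hoxd8, Hoxd10, Hoxb7, Hoxa10, Hoxa7, Hoxc10, Hoxd1, Hoxa9, Hoxb9, Hoxc9, Hoxa5, Hoxd11, Hoxd9, Hoxc8 and Hoxb5, the last at 1.13 RPKM. Most neighbours in this order did not differ beyond their spread. The ranges over the 4 libraries were separate only between Hoxa7 and Hoxc10 and between Hoxc10 and Hoxd1. Hoxd8 exceeded Hoxd10 in 2 of 4 libraries and Hoxb7 exceeded Hoxa10 in 2 of 4. By cluster, HoxD held 39.3% ± 3.19 of Hox RPKM, HoxA 28.7% ± 2.34, HoxB 18.6% ± 4.42 and HoxC 13.5% ± 1.03 (SD, n = 4). Without division by length, HoxA (39.1% of CPM) came before HoxD (35.6%). The exon lengths were 3761 and 3270 bases for Hoxa7 and Hoxa10, and 2744 and 1816 bases for Hoxd8 and Hoxd10.

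**Figure D3:**
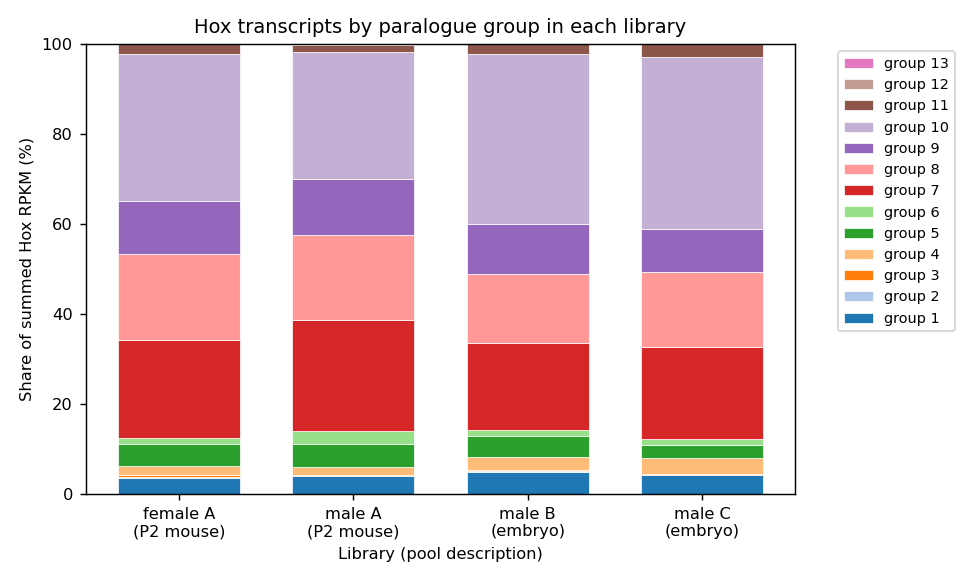
Share of summed Hox RPKM (y axis, percent) in each paralogue group for the 4 libraries (x axis, with the words of the pool description). Groups 7, 8, 9 and 10 fill 83.5% to 85.3% of every bar, and group 10 is narrowest in male A (28.2%).

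The first comparison the labels imply is between sexes. No Hox gene was called between female A and the 3 males: 0 of the 26 members tested passed edgeR's quasi-likelihood test after Benjamini-Hochberg adjustment, and 0 had an unadjusted p under 0.05. Over all 16708 genes tested the share called was 0% as well, with 129 genes under an unadjusted p of 0.05, 5 called by DESeq2 and 0 by limma-voom. Female A lay inside the male range for Hoxd10, Hoxb7, Hoxa10 and Hoxa7 and above it for Hoxd8. The log2 fold changes (female over male) ran from -1.03 (Hoxa4, SE 1.23) to 2.03 (Hoxb2, SE 1.29), and the smallest adjusted p of a Hox gene was 0.951 by the edgeR test. The SEs ran from 0.34 (Hoxd8, log2 fold change 0.12) to 1.33 (Hoxd4, 0.12), so that differences of moderate size in the low genes were not detectable at this depth and number of libraries.

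The spread of the single female was taken to be that of the males, whose spread includes the step between the pairs. With the pool description as a term, 0 of 26 Hox genes and 4 of all genes (0.0239%) were called by the edgeR test, and the Hox fold changes ran from -1.36 (Hoxc6, SE 0.94) to 3.08 (Hoxb2, SE 1.87).

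The second comparison sets the P2-mouse pair (female A and male A) against the embryo pair (male B and male C). It was chosen with earlier results of these data known, in which the libraries parted by this wording of the pool description. The share of genes called is therefore no independent test that the pairs differ. Of all 15568 genes tested 42.3% were called. In the P2-mouse pair 22.3% of them were higher and 20.0% lower. Of the 38 Hox genes 23 passed the filter on low counts; of these 0 were higher and 3 lower, a smaller share than over all genes, with no test of that difference. The median Hox log2 fold change was -0.27 against 0.02 over all genes, with 15 values below 0 and 8 above. The median size of the fold change, whatever its sign, was 0.49 for Hox genes and 0.55 over all genes.

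Hoxd10, Hoxa10 and Hoxa4 fell. Hoxd10 had 12.3 and 8.90 RPKM in the P2-mouse pair and 14.6 and 16.9 in the embryo pair, and the pairs did not overlap (log2 fold change -0.69, SE 0.19, edgeR adjusted p = 0.0205). Hoxa10, at 8.97 and 7.81 against 12.1 and 9.95 RPKM, was also without overlap (log2 -0.51, SE 0.15, edgeR adjusted p = 0.0313). Hoxa4, a gene of cervical levels with few counts, had 0.447 and 0.144 against 1.02 and 1.34 RPKM (log2 -2.03, SE 0.58, edgeR adjusted p = 0.0258). The third group 10 gene, Hoxc10, had overlapping pairs and a log2 fold change of -0.22 (SE 0.20, edgeR adjusted p = 0.401). Without male A none of the 3 passed (0 Hox genes called). Hoxa10 also failed without female A (adjusted p = 0.0914) and without male B (adjusted p = 0.0774), and Hoxa4 without male C (adjusted p = 0.0640), all by the edgeR test. Hoxd10 passed when any other single library was left out and with sex as a term (log2 -0.93, SE 0.23, edgeR adjusted p = 0.0319), and Hoxa10 did not pass with sex as a term (edgeR adjusted p = 0.0943). With that term 2 of 26 Hox genes (Hoxd10 and Hoxa4) and 23.8% of all genes were called (10.6% lower).

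**Figure D4:**
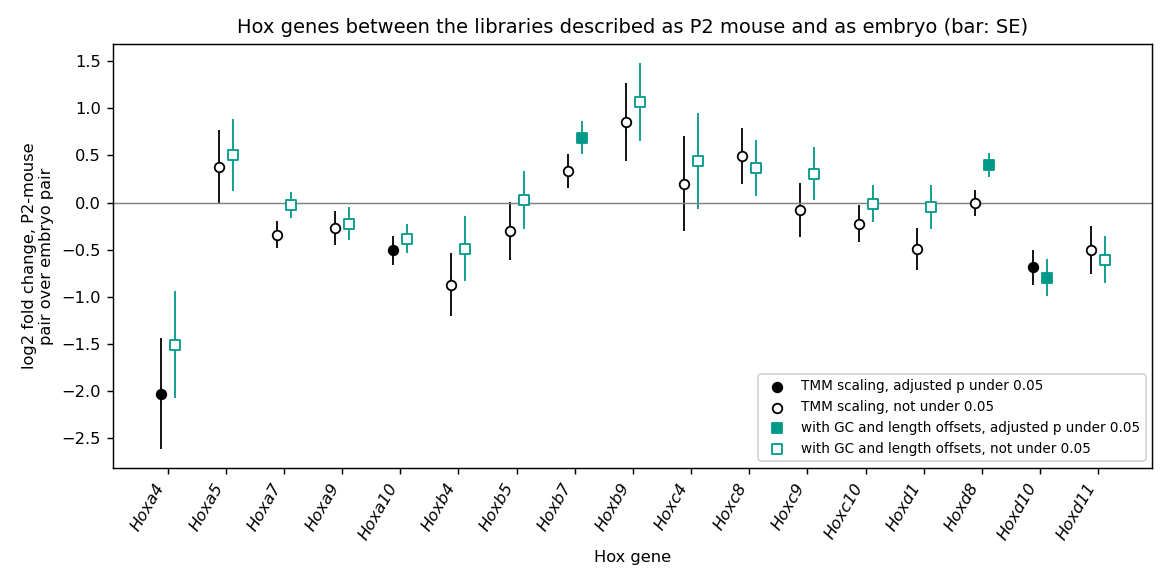
log2 fold change between the libraries described as P2 mouse and those described as embryo (y axis, bars are SE) for the 17 Hox genes named in this comparison (x axis), before and after offsets for GC content and length. Filled symbols have an adjusted p under 0.05: Hoxa4, Hoxa10 and Hoxd10 before, and Hoxb7, Hoxd8 and Hoxd10 after the offsets.

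GC content moved with the difference between the pairs: across 15474 genes, which are not independent replicates and share the 4 libraries, the fold change correlated with GC content at Spearman's rho = -0.462. The tested Hox genes had a median GC content of 53.5% against 49.8% over all tested genes. With offsets for GC content and length fitted per library, 1890 genes were higher and 3164 lower (12.2% and 20.4%, together 32.7% of genes, against 3472 and 3112 before). The Hox calls then changed to 2 higher and 1 lower. Hoxd10 stayed lower (log2 -0.79, SE 0.19, edgeR adjusted p = 0.0146). Hoxb7, with 10.5 and 12.5 against 8.17 and 8.64 RPKM, passed as higher (log2 0.69, SE 0.18, edgeR adjusted p = 0.0191, before the offsets 0.33 and 0.174). Hoxd8 turned from -0.0050 to 0.40 (SE 0.13, edgeR adjusted p = 0.0421), while Hoxa10 (adjusted p = 0.0941) and Hoxa4 (adjusted p = 0.0743) no longer passed the edgeR test. With sex as a term beside the offsets, Hoxb7 (log2 0.80, adjusted p = 0.0791) and Hoxd8 (log2 0.30, adjusted p = 0.317) did not pass the edgeR test and Hoxd10 was the only Hox gene called. With the offsets alone, the Hox median became -0.01 and that of all genes -0.07.

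Genes called in neither fit included members with sizeable but uncertain differences. Hoxb9 had a log2 fold change of 0.86 (SE 0.41, edgeR adjusted p = 0.134), which was 1.69 without male B (edgeR adjusted p = 0.000934) and 0.27 without male C (edgeR adjusted p = 0.437). It also passed when no low-count filter was used (edgeR adjusted p = 0.00717). Hoxb4 stood at 0.694 and 0.762 RPKM in the P2-mouse pair and 1.22 and 1.24 in the embryo pair (log2 -0.87, SE 0.33, edgeR adjusted p = 0.0690). Hoxd11 had -0.50 (SE 0.25), Hoxd1 -0.49 (SE 0.23), Hoxa7 -0.34 (SE 0.14), Hoxa9 -0.27 (SE 0.18) and Hoxb5 -0.30 (SE 0.31). Values near 0 or above it were those of Hoxc9 (-0.08, SE 0.29), Hoxc4 (0.20, SE 0.51), Hoxa5 (0.38, SE 0.39) and Hoxc8 (0.49, SE 0.30). All these values are from fits without the offsets. With the offsets Hoxd1 (-0.05), Hoxa7 (-0.02) and Hoxb5 (0.03) were near 0, and Hoxb4 stood at -0.49. Hoxd11 then stood at -0.60, Hoxa9 at -0.22 and Hoxb9 at 1.06. Hoxc9 (0.31), Hoxc4 (0.44), Hoxa5 (0.51) and Hoxc8 (0.36) were above 0.

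Markers of several cell types differed between the same pairs, where 42.3% of all genes were called (22.3% higher and 20.0% lower). With sex as a term that share was 23.8%. The 12 sensory neuron markers summed to 9338 and 8879 CPM in the P2-mouse pair and 16162 and 15306 in the embryo pair, with 8 lower and 1 higher by the edgeR test. The 13 Schwann cell markers summed to 5422 and 8505 against 3153 and 3219 CPM (12 higher) and the 10 fibroblast markers to 1541 and 1692 against 329 and 354 CPM (8 of 9 tested higher). The 7 endothelial and mural markers summed to 102 and 101 against 100.0 and 92.5 CPM, with 3 higher and 1 lower (0 with sex as a term). Their part in the Hox differences was not tested, and in such pools fewer cells of a type and less RNA per cell cannot be told apart. Ret itself, the gene that drives the reporter, had 31.8 and 31.6 against 37.0 and 32.7 RPKM.

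Other genes lie among the Hox genes, most of them noncoding, and few had counts. The annotation places 39 other genes between the outermost listed members of the clusters, 20 had a count in any library, and 5, all noncoding, reached a mean of 1 CPM. In HoxD, Hoxd3os1 stood at 2.13, 1.94, 1.95 and 2.49 RPKM and Haglr, a long noncoding RNA, at 1.74, 1.59, 1.69 and 1.49 RPKM, both with overlapping pairs. Both were above Hoxd3 and Hoxd4 in every library. The exons of Hoxd3os1 overlap those of Hoxd3 and Hoxd4, and the exons of Haglr overlap those of Hoxd3. Gm53, in HoxB, had 0.457 and 0.650 against 1.11 and 1.15 RPKM and was lower in the P2-mouse pair (log2 -1.16, SE 0.32, edgeR adjusted p = 0.0220), though not with sex as a term (adjusted p = 0.160, edgeR) or with the GC and length offsets (adjusted p = 0.0673, edgeR). Hoxaas3 in HoxA (0.715, 0.836, 0.412 and 0.459 RPKM) and Hotair in HoxC, a long noncoding RNA between Hoxc11 and Hoxc12 (0.995, 0.401, 0.440 and 0.520 RPKM), did not pass.

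Hox proteins bind DNA together with TALE homeodomain proteins of the Pbx, Meis and Pknox families, and all 9 listed genes were measured in every library. Pknox2 had the highest level, 25.1, 24.8, 30.1 and 30.2 RPKM. Between the pairs it was the only one of the 9 called (0 higher and 1 lower, log2 -0.39, SE 0.08, edgeR adjusted p = 0.00838), beside 42.3% of all genes. Pknox1 (5.39 ± 0.65) and Meis1 (4.93 ± 0.30 RPKM, SD, n = 4) followed. With sex as a term 0 of the 9 were called, Pknox2 included, and with GC and length offsets 2 were lower. Over all genes 23.8% were called with sex as a term and 32.7% with the offsets (20.4% lower). Summed over the list, TALE RNA was nearly level, between 367 and 388 CPM.

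**Figure D5:**
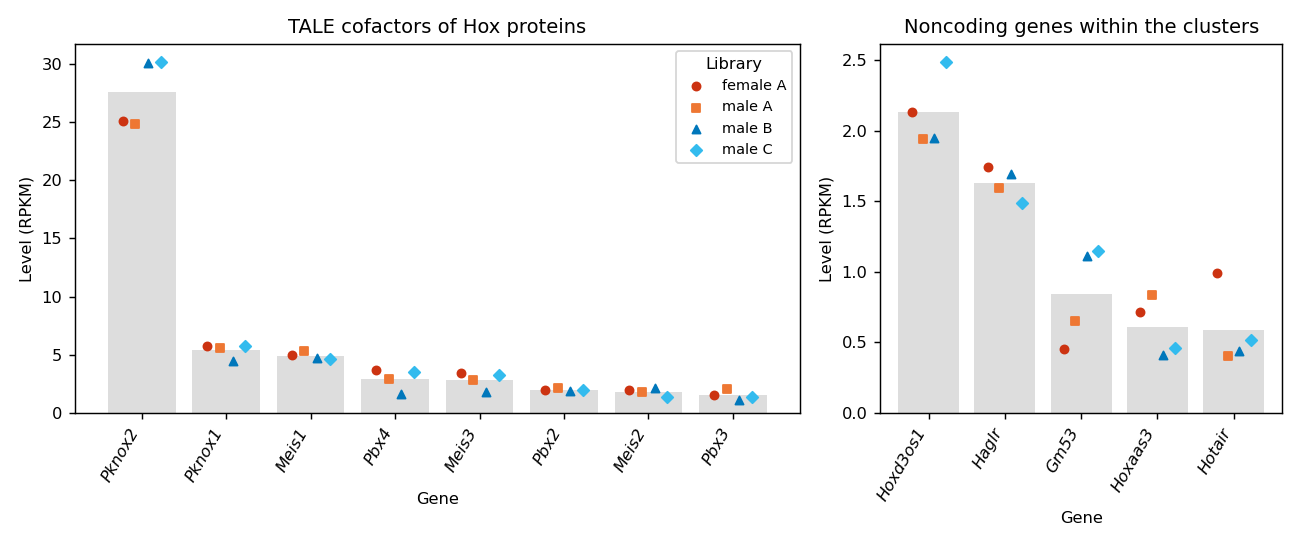
Level in RPKM (y axes) of 8 of the TALE cofactor genes (left) and of the 5 noncoding genes in the Hox clusters with a mean of at least 1 CPM (right); points are the 4 libraries and grey bars their mean. Pknox2, at 24.8 to 30.2 RPKM, stands above the other cofactors shown in every library.

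Polycomb proteins keep Hox genes silent outside their domain, and of 28 listed genes 11 were called between the pairs (8 higher in the P2-mouse pair, 3 lower), a share near the background of 42.3%. The highest levels were those of Rbbp7 (47.3 ± 4.74 RPKM), Rbbp4 (35.0 ± 1.70), Rnf2 (20.8 ± 7.16), which encodes the ubiquitin ligase of Polycomb complex 1, and Ezh1 (13.1 ± 2.09, SD, n = 4 each). Of the 2 H3K27 methyltransferases, Ezh1 was above Ezh2 in every library, and Ezh2 stood at 1.67, 2.16, 0.335 and 0.836 RPKM. Ezh2 (log2 1.59, SE 0.40, edgeR adjusted p = 0.0148), Mtf2 (1.26, SE 0.14), Suz12 (1.22, SE 0.18) and Bmi1 (1.21, SE 0.21) rose, whereas Pcgf1 (-0.51, SE 0.17), Ezh1 (-0.48, SE 0.11) and Cbx6 (-0.43, SE 0.15) fell. With the GC and length offsets the list had 2 higher and 3 lower, beside 12.2% and 20.4% of all genes. With sex as a term it had 6 higher and 2 lower, beside 13.2% and 10.6%.

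Of the 10 genes of the Trithorax group and H3K27 demethylases, which oppose Polycomb, 3 were higher and 1 lower, again near the 42.3% called over all genes. With sex as a term 2 were higher and 0 lower (Wdr5 and Dpy30 were lost, edgeR adjusted p = 0.210 and 0.0512), beside 13.2% and 10.6% of all genes. With the offsets 2 were higher and 1 lower, beside 12.2% and 20.4%. Ash1l (log2 1.29, SE 0.13), Kdm6a (1.18, SE 0.21) and Wdr5 (0.68, SE 0.20, edgeR adjusted p = 0.0291) rose and Dpy30 fell (-0.50, SE 0.09), the last from the highest level of the list (186 ± 30.4 RPKM). Rbbp5 (9.40 RPKM), Kdm6b (6.66) and Men1 (4.90) followed in level.

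Genes that set up Hox domains in the embryo were at low levels with 1 exception. Of the 12 listed, Cdx1, Cdx2 and Cyp26a1 had 0 counts, Cdx4 had 1 and Lin28a 2. Gdf11, a secreted factor that controls the trunk-to-tail transition, stood at 26.9, 22.8, 25.1 and 23.3 RPKM with overlapping pairs. Nr6a1 (1.48 RPKM), Rarg (1.47) and Rarb (1.31), both encoding retinoic acid receptors, came next. Of the 6 tested, Lin28b (log2 0.90, SE 0.28, edgeR adjusted p = 0.0349) and Nr6a1 (0.68, SE 0.19, edgeR adjusted p = 0.0215) were higher in the P2-mouse pair, beside 22.3% of all genes. With sex as a term 0 were called, beside 23.8% of all genes, and with the GC and length offsets 0, beside 32.7%.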

How the data were processed

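RNA was measured in 4 libraries of sorted cells, made from 10 ng of total RNA with the SMARTer Ultra Low Input kit and 12 PCR cycles per the labels' protocols. Per the submitters' processing notes, the authors counted reads per gene with featureCounts 1.4.5 (Subread) on GRCm38.p2, and these count values were deposited. The authors' CPM values equal the counts over the library's total of gene counts, and their deposited RPKM values equal the CPM over the exon length in kilobases, as recomputed here. Not given in the sources used here are the aligner, the strand setting and how reads over several genes were handled. Symbols were matched by gene identifier, and exons and their lengths were those of the deposited tables. Gene types and transcript sequences came from GENCODE M21 (GRCm38), in which 37 of 38 Hox genes have the deposited span. Nothing says that the libraries were made in separate batches, and the labels give 1 animal for each.

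Levels of different genes were compared in RPKM only. Differences were tested with edgeR 4.0.16 (R 4.3.3) on the counts, with TMM scaling, filterByExpr (minimum count 10, total 15), the quasi-likelihood F test and Benjamini-Hochberg adjustment over all genes at 0.05. The SE is the size of the log2 fold change over the square root of F. Each model left 2 residual degrees of freedom, or 1 with both sex and pool description. Alternatives were DESeq2 1.42.0, limma-voom (limma 3.58.1), size factors by relative log expression, a filter at a mean of 5 CPM or none, GC and length offsets (mgcv 1.9.3), each library left out, and the other factor in the model. The scripts were tested on simulated data with a CV of 20%. Changes of 2-fold were recovered for 14% of changed genes between the sexes and 31% between the pairs. In the data, the CV that edgeR fitted in common to all genes was 39.4% between the sexes and 16.2% between the pairs. The 14% was thus obtained at a smaller spread than the sex comparison had.

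The Hox genes and the lists (TALE cofactors, Polycomb, Trithorax and H3K27 demethylases, upstream patterning, head identity and 8 sets of cell type markers) were chosen with earlier results of these data known. Values in every library are given for members with a mean of at least 1 RPKM and at the ends of detection. Fold changes are given for called members and the 4 highest of each cluster. From each pathway list the 4 highest and up to 4 called in each direction are named; some results are not reported here. Libraries carried no molecular identifiers, so intervals and limits from 0 counts cover counting error only. Of the 8 cell type sets, satellite glia (419 to 748 CPM) and macrophages (at most 2.42 CPM) are given only here.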

Additional observations from a re-analysis of the deposited data

How the results depend on the processing

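No paired analysis was possible because the 1 female and the 3 males share only the letter A, which no label ties to a litter or day. In the female comparison 0 Hox genes were called under any alternative, whereas genes called in all numbered 2 without the filter, 5 with DESeq2, 4 with GC and length offsets, 4 with pool description in the model, and 5 to 3616 with 1 male left out (3616 without male A, when female A is set against the embryo pair alone). Between the pairs, genes called numbered 3969 with sex as a term, 1722 with sex and the offsets together, and 3616 (without male A) to 6926 (without male C) with 1 library left out. Hox genes called then numbered 0 (without male A) to 5 (without male B: Hoxa4, Hoxa5, Hoxb9, Hoxc5 and Hoxd10), and 1 with sex and the offsets together.

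Of 198 member fold changes under alternatives 185 kept their direction and 13 turned: Hoxa5 (-0.12 without male C, up to 1.04 without male B), Hoxb5 (0.030 with offsets), Hoxc4 (-0.20 with sex, -0.19 without female A, -0.05 without male B, up to 0.49 without male A), Hoxc9 (0.31 with offsets, -0.48 without female A to 0.23 without male A) and Hoxd8 (0.014 at 5 CPM, 0.0048 with limma-voom, 0.40 with offsets, 0.30 with sex and offsets, -0.10 without female A to 0.090 without male A, 0.03 without male C). The cause of these turns was not tested. In CPM the shares were 39.1% (HoxA), 13.8% (HoxB), 11.5% (HoxC), 35.6% (HoxD) and 85.6% (groups 7 to 10). Without the 15 members whose exons overlap other genes they were 24.6% (HoxA), 28.7% (HoxB), 9.48% (HoxC), 82.0% (groups 7 to 10) and 19.5% (group 10, which loses Hoxc10 and Hoxd10). Detected genes numbered 15 at a mean of 1 RPKM. With few or no counts, 15 Hox genes fell below the filter of the comparison between pairs and were not tested there.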
